A study of Rattus norvegicus with 9 samples.

Results

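The cytosolic ribosomal protein genes encode the protein part of the ribosomes that translate nuclear mRNAs. They were taken from the array's annotation as the probe sets paired with exactly 1 gene symbol beginning with Rpl or Rps and a digit, or with Rplp or Rpsa. S6 kinases (symbols beginning with Rps6k), pseudogenes marked -ps and ribosomal-protein-like genes such as Rpl7l1 were left out. The rule found 49 probe sets for 43 genes, 29 of the large and 14 of the small subunit, among 20826 probe sets for 14217 genes with a single symbol. Of these, 44 probe sets for 40 genes were bright enough to be tested. The dim ones were the only probe sets of Rpl28, Rpl30 and Rps13 and a further probe set each of Rpl14 and Rps24.

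Hypothalami of normal female rats were profiled on 9 Affymetrix arrays at 3 ages of sexual development, with no treatment and no genetic change. The groups were juvenile animals aged 26 days, which the labels name as controls, early pubertal animals aged 29 days and late pubertal animals aged 31 days, with 3 arrays each. The labels describe each array as RNA of a single hypothalamus. They number the arrays 1, 2 and 3 (juvenile), 7, 8 and 10 (early pubertal) and 12, 14 and 20 (late pubertal). Age and stage cannot be told apart in this design, and the rat strain was not given in the sources used here.

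Ribosomal proteins assemble with ribosomal RNA into a small subunit, which reads the mRNA, and a large subunit, which joins amino acids. Their mRNAs usually begin with a cytosine followed by a run of pyrimidines, the terminal oligopyrimidine tract, through which the growth-regulating kinase complex mTORC1 and the RNA-binding protein Larp1 control their translation. In the hypothalamus mTORC1 senses nutrients and leptin, and it has been linked to the timing of puberty. An array measures the abundance of an mRNA and not its translation.

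The start-site sequences of 4 members are shown because these genes had the smallest p-values over the 3 stages, and the pyrimidine run is marked because many ribosomal protein genes start in one. Each runs from 30 bases before to 20 bases after the first base of the RefSeq transcript, on the gene's strand, in the rat build GRCr8. Capitals mark the longest run of C and T, or the first of equally long ones, between 10 bases before and 20 bases after that start.
Rplp0, chr12:46718371-46718420, minus strand: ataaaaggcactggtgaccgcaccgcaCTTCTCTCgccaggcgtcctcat
Rpl18, chr1:105325240-105325289, plus strand: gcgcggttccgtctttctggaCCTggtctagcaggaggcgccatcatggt
Rps9, chr1:74430418-74430467, minus strand: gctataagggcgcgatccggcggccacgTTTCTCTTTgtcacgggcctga
Rpl37a, chr9:81748061-81748110, plus strand: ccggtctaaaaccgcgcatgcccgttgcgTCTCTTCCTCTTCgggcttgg
The run was 8 bases long in Rplp0, 9 in Rps9 and 13 in Rpl37a, whereas the longest run in the same window of Rpl18 was 3 bases. The run of Rps9 begins with T and holds no C followed by 7 pyrimidines, so Rps9 meets neither tract rule used below.

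RefSeq promoter windows were found for 38 of the 43 genes. A C at the annotated start followed by at least 4 further bases that were each C or T was present in 12 of the 38 (31.6%), against 2.44% of 18999 promoters of protein-coding genes. A C followed by at least 7 such bases anywhere between 10 bases before and 20 after the start was present in 20 of the 38 (52.6%), against 7.54% of all. Both tracts were searched on the gene's strand only. AAGATGG, the core of the motif bound by the transcription factor YY1, was found on either strand in 8 member windows (21.1%, against 7.58% of all), and it holds an ATG, so that it can overlap a start codon. The ETS-type motif CCGGAAG was found in 8 (21.1%, against 11.2%). The TATA-box letters TATAAA were found in 5 (13.2%, against 13.1%). These matches describe the letters of the windows and nothing more.

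Quantile-normalised levels of most ribosomal protein probe sets stood slightly above the juvenile levels at both pubertal stages, and no single member passed the test. All levels below are log2(signal + 16) after quantile normalisation, and all differences are on that log2 scale. Of the 44 tested probe sets, 32 (72.7%) were higher in early pubertal than in juvenile animals, against 49.6% of all 18625 tested probe sets, and the median difference was 0.057, against -0.001 over all. In late pubertal animals 36 (81.8%) were higher than in juvenile animals, against 49.6% of all, with a median difference of 0.062, against -0.001. Between the pubertal stages, 26 (59.1%) were higher in late than in early pubertal animals, against 50.1% of all, with a median of 0.005, against 0.000. Both comparisons with the juvenile stage use the same 3 juvenile arrays. In whole tissue, a change in the number of cells of a type and a change in mRNA per cell cannot be told apart.

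The limma test with Benjamini-Hochberg adjustment over all 18625 probe sets called 0 members in each of the 3 comparisons, and it called 0% of all probe sets in each. The smallest adjusted p of a member was 0.994 for early pubertal against juvenile, 1 for late pubertal against juvenile and 0.914 for late against early pubertal. At an unadjusted limma p under 0.05, 4 members were higher and 1, a dim probe set of Rpl7, was lower in early pubertal than in juvenile animals, where 1.92% of all probe sets were higher and 2.54% lower. For late pubertal against juvenile the counts were 3 higher (2.23% of all) and 0 lower (1.92% of all), and for late against early pubertal 0 higher (2.94% of all) and 0 lower (2.27% of all). A limma F test over the 3 stages called 0 members and 0% of all probe sets, and Rplp0 and Rps9 were the 2 members with an unadjusted p under 0.05, which 4.22% of all probe sets had.

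A second description counted probe sets whose 3 arrays of one stage all lay above the 3 of the other. For early pubertal above juvenile this held for 9 members (20.5%), against 3.86% of all probe sets, and in the other direction for 0 members, against 4.43%. For late pubertal above juvenile it held for 13 members (29.5%), against 5.9% of all, and in the other direction for 0, against 5.52%. Between late and early pubertal animals 4 members (9.09%) were apart with late higher, against 5.97% of all, and 0 with late lower, against 5.37%. These counts moved with the scaling. Under median centring (each array shifted to a common median), 4, 10 and 1 members were apart with the later stage higher (2.45%, 3.93% and 5.26% of all). With trimmed-mean scaling the counts were 17, 22 and 1 (3.98%, 6.2% and 6.22% of all). On deposited levels they were 0, 1 and 18 (0.129%, 2.39% and 22.6% of all), with 2 members apart in the other direction for early pubertal against juvenile (22.1% of all). Rplp0, Rps9, Rpl18, Rpl37a, Rps3a, Rpl23 and Rps24 were apart from the juvenile arrays at both pubertal stages after quantile normalisation. Of these, Rpl37a, Rps3a and Rps24 were so at both stages under median centring too, Rpl23 in early pubertal animals, and Rplp0, Rps9 and Rpl18 at neither.

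**Figure D1:**
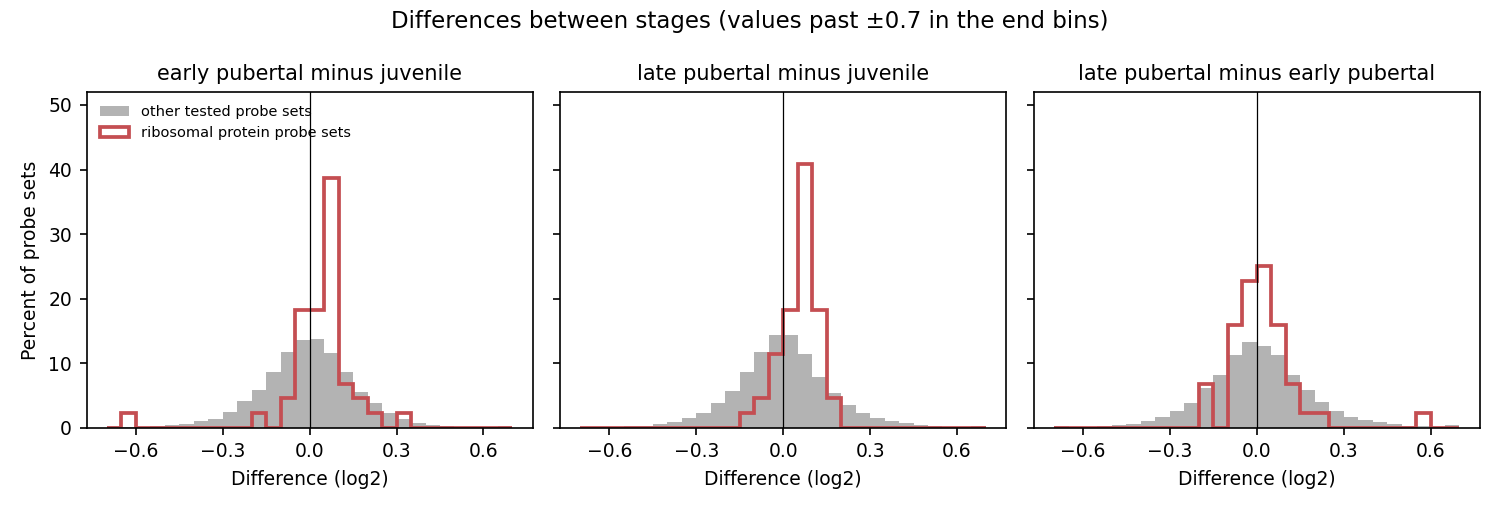
Distribution of differences between stages (log2, x axis) as the percent of probe sets in each bin (y axis), for the 44 tested ribosomal protein probe sets (red outline) and the other tested probe sets (grey), in 1 panel per comparison. The red outline sits to the right of 0 against the juvenile stage, with medians of 0.057 and 0.062, and around 0 between the pubertal stages, with a median of 0.005.

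After quantile normalisation the median standard error of a difference was 0.058 over the 40 tested genes, taking the brightest probe set of each, and 0.133 over all tested genes. Under median centring the median over the 40 genes was 0.091. Over these 40 genes the 95% intervals of the early pubertal minus juvenile difference reached from -0.38 to 0.48, and thus no gene's interval held a rise above 1.39-fold. For late pubertal minus juvenile they reached from -0.37 to 0.35, or at most 1.28-fold up, and for late minus early pubertal from -0.50 to 0.44. Both subunits gave like values. The 27 large-subunit genes had median differences of 0.058 for early pubertal and 0.065 for late pubertal against juvenile, and the 13 small-subunit genes 0.061 and 0.052.

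Rplp0, the anchor of the ribosomal stalk that recruits elongation factors, had the largest early pubertal difference among the 40 genes. Its juvenile levels were 10.99, 10.89 and 11.07, its early pubertal levels 11.08, 11.27 and 11.26, and its late pubertal levels 11.10, 11.24 and 11.12. Every pubertal array lay above every juvenile array, the closest pair being juvenile 3 and early pubertal 7, but under median centring juvenile 1, at 11.10, lay above early pubertal 7, late pubertal 12 and late pubertal 20. The difference was 0.22 ± 0.07 (SE) for early pubertal minus juvenile (95% interval 0.06 to 0.38, limma adjusted p = 0.994). It was 0.17 ± 0.07 for late pubertal minus juvenile (95% interval 0.01 to 0.33, limma adjusted p = 1). The other stalk proteins, Rplp1 and Rplp2, had no probe set with a single symbol and were not analysed here.

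Rps9, a small-subunit protein near the site where mRNA enters, was next in the F test. Its levels were 11.52, 11.48 and 11.49 in juvenile, 11.54, 11.80 and 11.69 in early pubertal, and 11.69, 11.62 and 11.59 in late pubertal animals. Juvenile arrays lay close together and below all others, while early pubertal 7 was nearly level with them. Under median centring juvenile 1, at 11.61, lay above early pubertal 7 and late pubertal 20. The differences from juvenile were 0.18 ± 0.07 in early pubertal (limma adjusted p = 0.994) and 0.14 ± 0.07 in late pubertal animals (limma adjusted p = 1). Of other proteins of the mRNA path, Rps3 at the entry and Rps23 at the decoding centre differed from the juvenile level by at most 0.05. Rps15, of the same path, differed by 0.10 ± 0.07 in early and 0.13 ± 0.07 in late pubertal animals, and its arrays overlapped with the juvenile ones. Rps3 measured 11.88, 12.08 and 11.89, then 11.74, 12.02 and 12.17, then 12.11, 12.03 and 11.87, and its stages overlapped. Rps23 differed from the juvenile level by -0.01 and 0.02, and the first of these was 0.14 under median centring.

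Rpl18, a large-subunit protein, was at 11.44, 11.38 and 11.46 in juvenile, 11.50, 11.65 and 11.59 in early pubertal, and 11.48, 11.52 and 11.50 in late pubertal animals. Early pubertal levels were highest, and late pubertal levels lay between. Under median centring juvenile 1, at 11.53, lay above early pubertal 7. The early pubertal minus juvenile difference was 0.15 ± 0.06 (limma adjusted p = 0.994), and the late minus early pubertal difference was -0.08 ± 0.06 (limma adjusted p = 0.914). Rpl37a, a zinc-binding protein of the large subunit, had juvenile levels of 12.53, 12.65 and 12.64, early pubertal levels of 12.70, 12.68 and 12.73, and late pubertal levels of 12.69, 12.69 and 12.76. Its pubertal arrays all lay above its juvenile arrays, by 0.10 ± 0.04 and 0.11 ± 0.04 (limma adjusted p = 0.994 and adjusted p = 1).

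Rps3a, a small-subunit protein near the mRNA exit, measured 12.37, 12.42 and 12.37, then 12.44, 12.46 and 12.52, then 12.55, 12.43 and 12.53 in stage order. It was 0.11 ± 0.05 higher in late pubertal than in juvenile animals (limma adjusted p = 1), with no overlap of the arrays. Rpl35, which sits at the mouth of the tunnel through which the new protein leaves, measured 12.08, 12.13 and 12.04 in juvenile, 12.08, 12.11 and 12.23 in early pubertal, and 12.21, 12.18 and 12.20 in late pubertal animals. Its late pubertal arrays lay above the juvenile ones, by 0.11 ± 0.05 (limma adjusted p = 1).

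**Figure D2:**
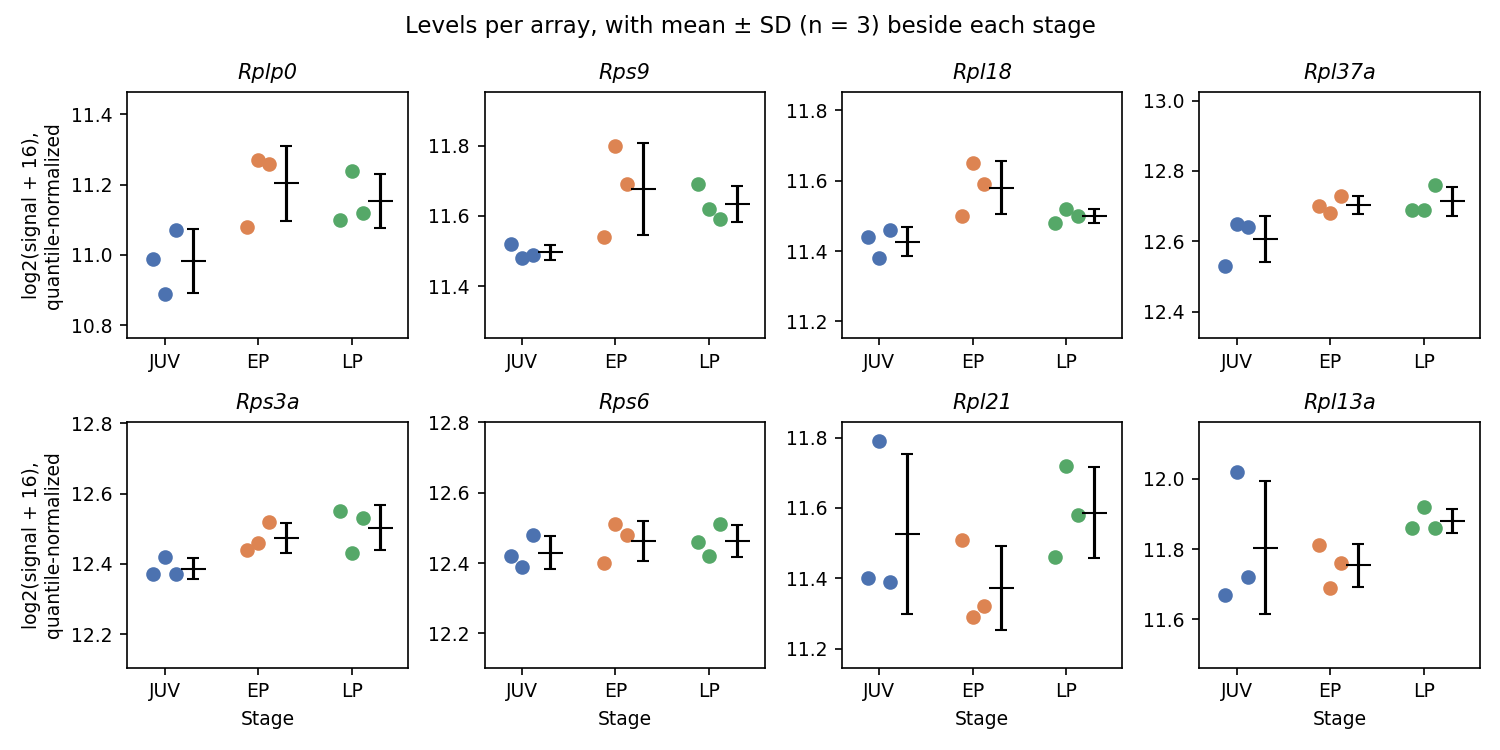
Quantile-normalised levels (log2 of signal plus 16, y axis) of named ribosomal protein genes in each of the 9 arrays (points), grouped by stage (JUV juvenile, EP early pubertal, LP late pubertal), with the mean and SD of the 3 arrays beside the points. The y axes do not start at 0. Rplp0, Rps9, Rpl18 and Rpl37a show all early pubertal points above all juvenile points, by at most 0.22 on average, which under median centring holds for Rpl37a alone of the 4.

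Rpl3, which reaches toward the peptidyl transferase centre, had levels of 12.44, 12.37 and 12.41, then 12.42, 12.50 and 12.46, then 12.45, 12.44 and 12.48 on its bright probe set. Its pubertal minus juvenile differences were 0.06 ± 0.04 and 0.05 ± 0.04. Rpl4, which extends a loop into the exit tunnel, was at 11.53, 11.51 and 11.61, then 11.56, 11.74 and 11.66, then 11.57, 11.61 and 11.55. Its early pubertal minus juvenile difference was 0.11 ± 0.06. Its late pubertal arrays were back among the juvenile ones, -0.08 ± 0.06 from the early pubertal level (limma adjusted p = 0.914). Rpl19, a protein of the bridges between subunits, was at 12.18, 12.15 and 12.19, then 12.16, 12.35 and 12.26, then 12.18, 12.16 and 12.22. Its late minus early pubertal difference was -0.07 ± 0.05. Rpl39, a very short protein lining the tunnel, measured 8.09, 8.15 and 8.40, then 8.34, 8.37 and 8.12, then 8.21, 8.09 and 8.04. Its late pubertal levels overlapped with both other stages, with differences of -0.10 ± 0.12 from juvenile and -0.16 ± 0.12 from early pubertal.

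Rpl5 and Rpl11 form a particle with the 5S ribosomal RNA that also binds Mdm2 when ribosome assembly fails, and their late pubertal differences had opposite signs. Rpl5 was at 12.02, 12.05 and 12.05, then 12.03, 12.14 and 12.14, then 12.12, 12.09 and 12.11, with late pubertal arrays above juvenile ones by 0.07 ± 0.05, though not under median centring. Rpl11 was at 11.84, 11.83 and 11.75, then 11.87, 11.73 and 11.89, then 11.68, 11.86 and 11.71, with a late pubertal minus juvenile difference of -0.05 ± 0.06 and overlapping arrays. Neither difference passed the test, and the difference between the genes was not tested.

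Rps6, the small-subunit protein that S6 kinases phosphorylate downstream of mTORC1, had near-identical levels at all stages. They were 12.42, 12.39 and 12.48 in juvenile, 12.40, 12.51 and 12.48 in early pubertal, and 12.46, 12.42 and 12.51 in late pubertal animals. Its differences from juvenile were 0.04 ± 0.05 at both stages, with 95% intervals from -0.07 to 0.14. Phosphorylation is not measured by these arrays.

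Among genes mutated in Diamond-Blackfan anaemia, Rps24 was at 12.08, 12.10 and 12.11, then 12.17, 12.11 and 12.22, then 12.13, 12.15 and 12.19. Its stages were apart in both comparisons with juvenile, by 0.07 ± 0.05 and 0.06 ± 0.05. Rpl35a was at 12.12, 12.38 and 12.26, then 12.30, 12.16 and 12.28, then 12.33, 12.42 and 12.36, and its late pubertal arrays lay above the early pubertal ones by 0.12 ± 0.07 (limma adjusted p = 0.914), though not under median centring.

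The 4 proteins listed for roles outside the ribosome, Rpl13a, Rpl22, Rpl26 and Rps3, had a median difference of -0.017 for early pubertal and 0.073 for late pubertal against juvenile, and the first turned to 0.036 under median centring. Rpl13a, which joins an interferon-induced complex that blocks translation, was at 11.67, 12.02 and 11.72, then 11.81, 11.69 and 11.76, then 11.86, 11.92 and 11.86. Its late pubertal arrays lay above the early pubertal ones, by 0.13 ± 0.08 (limma adjusted p = 0.914), while juvenile 2 was the highest array of all. Under median centring early pubertal 10 lay among its late pubertal arrays. Rpl22, which is needed for T-cell development, showed the same high juvenile 2, with 11.29, 11.66 and 11.33, then 11.54, 11.20 and 11.47, then 11.54, 11.52 and 11.61. Rpl26, which binds p53 mRNA, was at 12.65, 12.87 and 12.75, then 12.83, 12.67 and 12.74, then 12.79, 12.77 and 12.91, and its stages overlapped. Its early pubertal minus juvenile difference was -0.01 ± 0.06, against 0.13 under median centring.

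By the brightest probe set of each gene, the members with the lowest early pubertal levels relative to juvenile were Rpl21, Rps15a, Rpl24 and Rpl13a. In each of these the early pubertal and juvenile arrays overlapped. Rpl21, a large-subunit protein, was at 11.40, 11.79 and 11.39, then 11.51, 11.29 and 11.32, then 11.46, 11.72 and 11.58. Its early pubertal minus juvenile difference of -0.15 ± 0.11 (limma adjusted p = 0.994) was -0.019 without juvenile 2, and its late minus early pubertal difference was 0.21 ± 0.11 (limma adjusted p = 0.914). Rps15a, of the small subunit, was at 12.19, 12.18 and 12.12, then 11.81, 12.15 and 12.29, then 12.13, 12.08 and 12.18. Early pubertal 7 alone was low, and without it the difference of -0.08 ± 0.09 turned to 0.056. Rpl24, which reaches from the large to the small subunit, was at 11.64, 11.58 and 11.62, then 11.66, 11.45 and 11.60, then 11.53, 11.70 and 11.48, and its differences were -0.05 ± 0.07 at both stages. Rpl41, a very short protein between the subunits, was at 12.13, 12.16 and 12.18, then 12.21, 12.09 and 12.20, then 12.26, 12.23 and 12.23, so that the late pubertal arrays lay above all 6 others, by 0.08 ± 0.05 from each other stage. Under median centring early pubertal 10, at 12.36, was the highest array, and late minus early pubertal was 0.01. Juvenile 1, at 12.17, then lay above late pubertal 20, at 12.16.

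**Figure D3:**
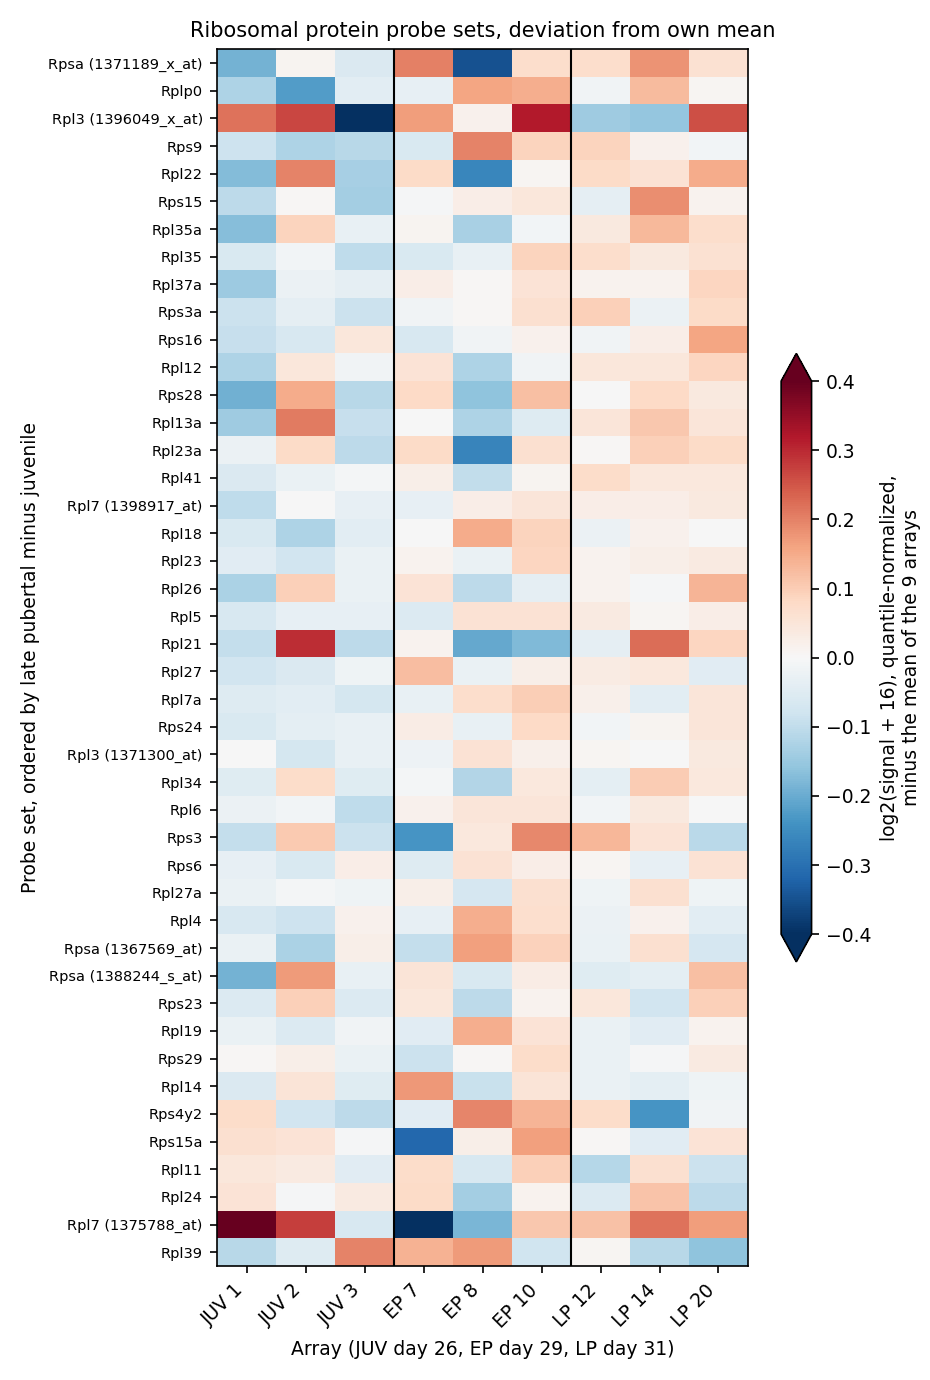
Deviation of each tested ribosomal protein probe set (rows) from its mean over the 9 arrays (columns, by stage), in log2 units after quantile normalisation. Early pubertal 10 is above the row mean in 38 of 44 rows, and juvenile 1 and juvenile 3 in 7 and 6.

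Where a gene had several tested probe sets, they did not always go the same way. For Rpl7 the bright probe set differed by 0.06 ± 0.05 between early pubertal and juvenile animals, while a dim one differed by -0.63 ± 0.28 (limma adjusted p = 0.994). The dim probe set was at 7.02, 6.81 and 6.47, then 5.41, 6.35 and 6.64, then 6.65, 6.75 and 6.70, with early pubertal 7 far below the rest. On a dim probe set of Rpl3, juvenile 3 stood alone at 6.79, against 7.58 to 8.05 on the other arrays. Rpsa, the ribosomal protein that is also known as the laminin receptor, had early pubertal minus juvenile differences of 0.09 ± 0.07, 0.05 ± 0.13 and 0.03 ± 0.09 on its 3 probe sets, and late pubertal differences of 0.03 ± 0.07, 0.18 ± 0.13 and 0.03 ± 0.09. Many ribosomal protein genes have processed pseudogenes of nearly the same sequence, and a probe set may take up signal from them. Brightness is a property of the probes as well as of the mRNA, so levels were not compared between genes.

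Single arrays stood off within their stages for some members. The gap between juvenile 2 and the mean of the other juvenile arrays exceeded 0.2 in 6 probe sets, namely those of Rpl13a, Rpl21, Rpl22 and Rps28, the dim one of Rpl3 and 1 of Rpsa. Early pubertal 8 lay more than 0.2 below the other early pubertal arrays in 5, namely those of Rpl22, Rpl23a and Rps28, the dim one of Rpl3 and another of Rpsa. Early pubertal 7 did so in 6 and lay more than 0.2 above in 3. These genes and arrays were picked out after their values were seen.

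The size of the family's shift depended on how the arrays were put on one scale. Ribosomal protein probe sets crowd the bright end of the array, where 28 of the 49 were among the brightest 1% of all probe sets. With each array centred on its median, 38 of 44 (86.4%, against 42.5% of all) were higher in early pubertal than in juvenile animals with a median of 0.12. In late pubertal animals 37 (84.1%, against 41.8%) were higher than juvenile. Between late and early pubertal the count turned, to 11 higher (25%, against 49.8%) with a median of -0.049. This turn was not seen when early pubertal 10 was left out, where 30 were higher (68.2%, against 55%) with a median of 0.027. Scaling to a common trimmed mean gave 42 (95.5%, against 49.5%), 39 (88.6%, against 50.8%) and 11 (25%, against 51.2%) in the same order. Deposited signals, with no scaling, gave 3 (6.82%, against 7.25%), 37 (84.1%, against 45.4%) and 44 (100%, against 91.4%). The fits at these other scalings also called 0 members.

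Early pubertal 10 stood apart under median centring, where it was the highest early pubertal array in 40 of 44 probe sets, by a median gap of 0.233, and its members' median deviation was 0.205, against -0.091 to 0.081 on the other arrays. Without it the quantile-normalised early pubertal minus juvenile median was 0.021 instead of 0.057, and 26 of 44 (59.1%, against 49% of all) were higher. Without it 9 members (20.5%) were apart with early pubertal higher, against 9.14% of all probe sets. It also had the lowest median deposited signal of the 9 arrays, 79.78 against 91.76 to 122.3. The 265 other probe sets among the brightest 1%, which carry no ribosomal protein symbol (37 of them carry no symbol at all), had early pubertal minus juvenile medians of 0.069 under median centring and -0.008 after quantile normalisation, against 0.126 and 0.032 for the 28 bright members. For late pubertal minus juvenile, the medians of the 265 were 0.007 and -0.01 in the same order, against 0.085 and 0.065 for the 28.

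**Figure D4:**
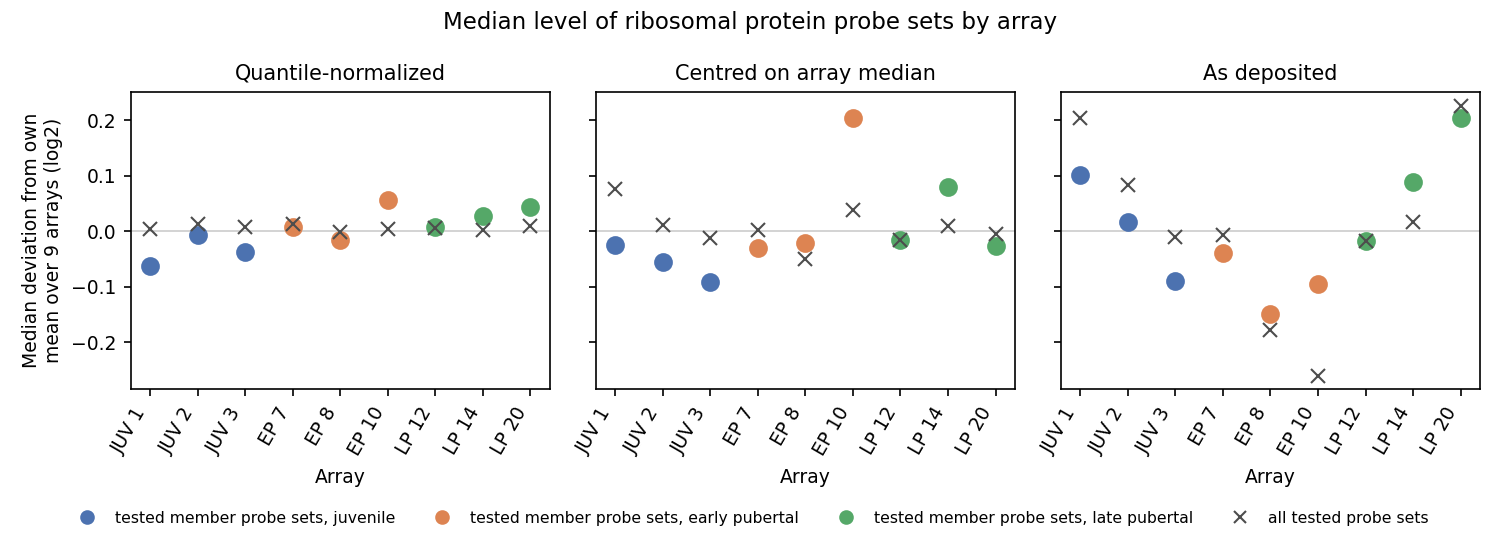
Median deviation from their own means over the 9 arrays (log2, y axis) of the 44 tested ribosomal protein probe sets (coloured points, by stage) and of all tested probe sets (crosses) in each array (x axis, JUV juvenile, EP early pubertal, LP late pubertal), in 1 panel each for quantile normalisation, median centring and deposited levels. After quantile normalisation the member medians run from -0.062 in juvenile 1 to 0.056 in early pubertal 10, and under median centring early pubertal 10 alone reaches 0.205. Juvenile 2 (-0.006) lies above early pubertal 8 (-0.015) after quantile normalisation. With median centring juvenile 1 (-0.025) lies above early pubertal 7 (-0.03) and late pubertal 20 (-0.027).

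Markers of leptomeninges, the membranes on the brain surface, stood higher in the same comparisons. All 7 were above the filter, and 7 of 7 were higher than juvenile at both pubertal stages, with median differences of 0.189 and 0.361. Their summed quantile-normalised signal was 7714 to 9683 in juvenile, 8312 to 11980 in early pubertal and 9564 to 11190 in late pubertal animals, with the highest value in early pubertal 10. Of 3 tested markers of ependyma and tanycytes 3 were higher at both stages, with medians of 0.214 and 0.25, and of 6 astrocyte markers 4 were higher at each, with medians of 0.087 and 0.062. Of 6 neuron markers 2 were higher in early and 0 in late pubertal animals, with medians of -0.076 and -0.119, and of 5 microglia markers 4 and 0, with medians of 0.149 and -0.193. The limma test called 0 of these markers. The part of these cells in the ribosomal protein values was not tested. Of 11 hypothalamus markers 9 were above the filter, Sim1 and Otp being the dim ones, with sums of 18110 to 23150 over the 9 arrays. Of these 9, 4 were higher in early and 2 in late pubertal than in juvenile animals, with medians of -0.019 and -0.111, and 2 were higher in late than in early pubertal animals, with a median of -0.102. Of 3 tested markers of the neighbouring thalamus and cortex, 0 were higher than juvenile at either pubertal stage, with medians of -0.172 and -0.112. The summed signal of the 5 on the array was 1353 to 1395 in juvenile, 1182 to 1213 in early pubertal and 1195 to 1323 in late pubertal animals. The limma test called 0 of the 3, and the part of these tissues in the ribosomal protein values was not tested. The 3′ to 5′ ratio of the Gapdh control probe sets was 0.948 to 1.02, and that of Actb 2.14 to 3.24.

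Genes that work with ribosomes are given by the brightest probe set of each, beside all 10600 tested genes, of which 51.0% (early pubertal) and 50.8% (late pubertal) stood above juvenile, with medians of 0.003 and 0.002. The limma test called 0 of the listed genes in each comparison. The 7 tested genes listed for elongation are elongation factors and Eef2k, the kinase of Eef2. Of the 7, 6 were higher than juvenile at each pubertal stage, with medians of 0.054 and 0.042. Among the 6 was Eef2k, by 0.02 ± 0.38 and 0.46 ± 0.38 on a dim probe set. Of 31 initiation factors, 22 were higher in early and 17 in late pubertal animals, with medians of 0.044 and 0.007. The 10 other transcripts listed with a terminal oligopyrimidine tract had 6 and 8 higher, with medians of 0.019 and 0.056. The lists overlap. Eef2 and Eef1a1 stand in both the tract and elongation lists, and Eif3f, Eif3h and Eif4b in both the tract and initiation lists. Eif6 stands in the lists for initiation and biogenesis. Of 56 ribosome biogenesis factors, 30 and 40 were higher, with medians of 0.005 and 0.051, and of 13 genes of RNA polymerase I transcription 8 and 9, with medians of 0.042 and 0.063. The 25 genes of mTORC1 and S6 kinase signalling had 11 and 15 higher, with medians of -0.016 and 0.016. Of 73 mitochondrial ribosomal protein genes, 42 and 51 were higher, with medians of 0.038 and 0.043. Between late and early pubertal animals the 7 lists had medians from -0.02 to 0.029. Median centring turned the sign of several, and it also moved the medians of all 10600 tested genes against juvenile, to -0.025 and -0.026. Beside these, the list medians were -0.025 and 0.02 for biogenesis factors, 0.022 and -0.036 for initiation factors and -0.013 and 0.025 for polymerase I genes. They were -0.053 and -0.019 for mTORC1 genes and -0.006 and -0.003 for mitochondrial ribosomal proteins. The elongation list and the other tract transcripts, which share Eef2 and Eef1a1, stayed above 0, at 0.098 and 0.037, and at 0.033 and 0.047.

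Larp1, which binds oligopyrimidine-tract mRNAs under mTORC1 control, measured 10.27, 10.38 and 10.35 in juvenile, 10.55, 10.12 and 9.94 in early pubertal, and 10.60, 10.51 and 10.59 in late pubertal animals. Its late pubertal arrays lay above the juvenile ones, and its early pubertal arrays were spread widely. The late minus early pubertal difference was 0.36 ± 0.12 (limma adjusted p = 0.914). Rack1, a scaffold protein of the small subunit, measured 11.19, 11.18 and 11.24, then 11.28, 11.30 and 11.34, then 11.23, 11.20 and 11.24. Its early pubertal arrays lay above the juvenile ones by 0.10 ± 0.05.

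The 18 tested genes with a C followed by at least 7 pyrimidines near the start had a median early pubertal minus juvenile difference of 0.06, and the 18 without it 0.03. In each set 13 genes were higher. Against juvenile, late pubertal medians were 0.06 in both sets, with 15 genes higher in each. No test was made between the sets.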

How the data were processed

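The values analysed are probe-set signal intensities deposited by the authors and made with MAS5, per the submitters' processing notes; the version and any scaling target were not given in the sources used here. Depth has no meaning for arrays, and their number limits the precision. The deposited signals were turned into log2(signal + 16) and quantile normalised. After removal of 57 control probe sets, those with a mean above the 40th percentile were kept (18625 of 31042). Stages were compared with limma 3.58.1 in R 4.3.3 (lmFit and eBayes with an intensity trend on all 9 arrays, 3 pairwise contrasts and an F test), with Benjamini-Hochberg adjustment over all tested probe sets and a threshold of 0.05. Pairs of arrays correlated at 0.966 to 0.979, and 0 pairs were identical. The script was tested on simulated data.

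Symbols are those of GEO's platform annotation: 20826 probe sets had 1 symbol, 436 several and 9780 none. Members and lists were chosen with earlier results of these data known. A symbol was read as ribosomal-protein-like when an l follows its own number, since a literal reading would drop Rpl3 and all plain Rpl symbols. Named in the text were, per comparison and direction, the 4 genes of smallest unadjusted p, the 4 of smallest F-test p, members fixed by role (among them, Rplp1, Rplp2, Rpl10, Rps2, Rps27a, Rps19, Rps14 and Rpl38 had no single-symbol probe set), and at most 2 genes per other list. Members were matched to RefSeq promoters (GRCr8) by gene ID (36) or symbol (2). The labels say that arrays are separate samples but not how animals were drawn, so p-values measure the spread between these arrays. Alternatives changed the constant, normalisation, filter, variance prior, array weights, probe-set choice and arrays used.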

Additional observations from a re-analysis of the deposited data

How the results depend on the processing

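In all 24 alternatives and every comparison, limma called 0 members. For early pubertal minus juvenile, the member median of 0.057 became -0.092 on deposited levels, 0.12 with median centring, 0.158 with trimmed-mean scaling and 0.021 (without early pubertal 10) to 0.069 when single arrays were left out. Less the median of all tested probe sets, 0.058 became 0.148, 0.148, 0.16 and 0.025 to 0.074. Such relative values must be equal on deposited and median-centred levels, because centring shifts all values of an array alike. Their equality in each comparison thus carries no information. For late pubertal minus juvenile, 0.062 became 0.111 with trimmed-mean scaling and 0.05 to 0.077 without single arrays, and the relative value of 0.064 became 0.106 on deposited levels, 0.106 with median centring, 0.107 with trimmed-mean scaling and 0.052 to 0.078. For late minus early pubertal, 0.005 became 0.175, -0.049, -0.058 and -0.006 to 0.028, and the relative 0.004 became -0.049, -0.049, -0.063 and -0.004 to 0.026. Median centring without early pubertal 10, an alternative chosen after seeing the data, gave relative values of 0.099 for early and 0.106 for late pubertal against juvenile. For late minus early pubertal its member median was 0.027, against 0.021 over all tested probe sets. The alternatives were run on the 24 values that the rule by smallest p names (4 genes per comparison and direction). Of the 574 values so obtained, 14 changed sign, and the lowest adjusted p was 0.195. For early pubertal minus juvenile these were Rpl18 (-0.046) and Rps9 (-0.02) on deposited levels, Rps15a (0.039), Rpl24 (0.015) and Rpl13a (0.022) with trimmed-mean scaling, Rpl13a (0.015) with array weights, Rps15a (0.056) without early pubertal 7, Rpl24 (0.012) without early pubertal 8 and Rpl13a (0.061) without juvenile 2. Leaving out single arrays gave Rps15a -0.181 to 0.056, Rpl24 -0.088 to 0.012 and Rpl13a -0.121 to 0.061. For late pubertal minus juvenile it was Rps15a (0.017) with trimmed-mean scaling, and for late minus early pubertal Rpl18 (0.115), Rpl19 (0.094), Rpl4 (0.103) and Rpl39 (0.076) on deposited levels. Over all 24 genes that the rule names, by role included, median centring turned the sign of 2 for early pubertal and 0 for late pubertal against juvenile, and of 8 for late against early pubertal. The cause was not tested. No paired analysis was possible because the stages share no replicate number. Counts at the other scalings and the comparison of the brightest probe sets were added after seeing the data.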

Other observations

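A further 30 probe sets pair with several symbols of which ribosomal proteins are part, so they name no single gene. Of these, 29 were tested, and 18 were higher in early pubertal and 24 in late pubertal than in juvenile animals, with median differences of 0.019 and 0.049, while limma called 0. Their median between late and early pubertal animals was 0.018.

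Ribosomal-protein-like genes, which are separate genes related to a ribosomal protein, had 4 tested probe sets of 6. Rps27l, a p53 target, measured 6.29, 7.26 and 6.54 in juvenile, 6.40, 5.20 and 6.49 in early pubertal, and 6.35, 6.37 and 6.36 in late pubertal animals. Its early pubertal minus juvenile difference was -0.67, with juvenile 2 high and early pubertal 8 low. Both probe sets of Rpl7l1 had early pubertal minus juvenile differences of 0.00.

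The control probe set for the 5S ribosomal RNA, which has no poly(A) tail, gave deposited signals of 57.34, 94.11 and 62.42 in juvenile, 67.75, 78.81 and 36.22 in early pubertal, and 64.86, 58.14 and 23.13 in late pubertal animals. Early pubertal 10 and late pubertal 20 were lowest.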
